A study of Homo sapiens with 15 samples.

Results

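Accessible chromatin was described at 10 genes that mark injured, dedifferentiated or stem-like proximal tubule cells, HAVCR1, VCAM1, LCN2, SPP1, PROM1, CD44, DCDC2, VIM, CLU and ANXA1. They were taken as a list of names out of 20007 protein-coding genes. The rule used no measured value, but the genes were chosen with earlier results of these data known. For each gene the GENCODE v44 gene body with 10000 bp on each side was examined on the human assembly hg38. The cells were RPTEC, human renal proximal tubule epithelial cells immortalised with hTERT and kept under G418, so every group carries hTERT. WT cells were compared with the SETD2 knockout clones KO1 and KO2, each a single clone with a frameshift in SETD2, and with Rescue1 and Rescue2, 2 single clones grown from KO2 cells after full-length SETD2 with a FLAG tag had been returned by lentivirus under blasticidin selection. ATAC-seq, in which the Tn5 transposase tags open DNA, gave 3 libraries for each of the 5 groups. Both rescue clones descend from KO2, so a state that KO2 already had and an effect of SETD2 cannot be told apart in comparisons of rescue with KO1 or WT, and replicates here are libraries of one clone, so p-values measure the spread between these libraries.

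Background on the cells helps to place the genes. After injury the proximal tubule loses transport functions, and surviving cells flatten, spread and take up a program that includes shed or secreted proteins, adhesion molecules and intermediate filaments, and that usually fades as the epithelium is repaired. Scattered CD133-positive, vimentin-positive tubule cells carry part of this program without overt injury, and cells that keep it are described as failing to repair. An ATAC-seq peak at such a gene marks a stretch of DNA that Tn5 entered above the local background, at a promoter or at a possible regulatory element, and says nothing by itself of the RNA made.

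The lists held from 197527 peaks in WT replicate 2 to 266011 in Rescue2 replicate 1, and peaks covered 49.4 to 65.2 Mb in each library. Mean covered length was 51.7 ± 3.91 Mb in WT (SD, n = 3) and 55.9 ± 3.13 Mb in KO (SD, n = 6). In rescue it was 58.3 ± 5.36 Mb (SD, n = 6), and the ranges overlapped. Within rescue, Rescue2 stood at 61.2 ± 6.23 Mb and Rescue1 at 55.4 ± 2.67 Mb (SD, n = 3 each). Their parent KO2 stood at 56.7 ± 4.56 Mb (SD, n = 3). Scaling to bases per Mb under peaks lowered the median log2 ratio of all genes by a shift of -0.11 between KO and WT and of -0.17 between rescue and WT, so directions that turn with this scaling are named beside the gene. Of 8 kidney epithelial markers, 7 had a peak within 1000 bp of the main start site in all 15 libraries, while CDH1, the epithelial cadherin, had one in 3 WT libraries, 1 KO2 library and no other. Of 10 proximal tubule markers, ANPEP and GGT1 had such a peak in 15 libraries and CUBN, SLC34A1, SLC5A12, AQP1 and HNF4A in none, so several defining genes of the labelled tubule segment had no called promoter. Among markers of other cells, 3 of 5 fibroblast genes had a peak in all 15 libraries, and DCN, a further one, in 3 KO1, 3 KO2 and 1 Rescue1 library but in no WT library. Of 4 endothelial genes CDH5 and KDR had one in 15 libraries and PECAM1 and VWF in none, and of 4 immune genes CD68 had one in 15, LYZ in 2 and PTPRC and CD3E in none. The part of CDH1, DCN or covered length in the results below was not tested.

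All loci except VCAM1 had a peak within 1000 bp of the main start site, the first base of the gene's main annotated transcript, in all 15 libraries. These 9 promoters were thus called open in WT, KO and rescue cells alike. VCAM1, an endothelial and epithelial adhesion molecule for leukocytes, had no peak there in any library, and its nearest called regions were centred at -6.6 kb, -5.9 kb and +2.0 kb from the start. At ANXA1 the mean length under peaks around the start was 289 bases in WT, 197 in KO and 340 in rescue libraries, and at PROM1 it was 1268, 984 and 1130 bases. The ANXA1 region on the start site itself held 194 to 207 bases in WT, 160 to 233 in KO and 170 to 211 in rescue libraries. The rest came from intronic regions at +0.3 and +0.8 kb, which among WT libraries only replicate 1 held. The +0.8 kb region had a mean of 50.7 bases in WT, 14 in KO and 123 in rescue.

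Peaks of the 15 libraries that shared a base were merged into regions. The 10 loci held 211 of the 367949 merged regions in the genome, of which 169 were present in at least 2 libraries and 42 in a single library. By place, 101 of the 169 lay in introns, 18 in exons, 9 on main start sites, 10 on other start sites, 15 upstream and 16 downstream of the gene. A peak was found in all 15 libraries for 78 of them, or 46.2%, against 35.6% of the 295008 such regions in the genome. Between 110 and 140 of the regions held a peak in a given library, with mean counts for WT of 118.3 ± 9.71 (SD, n = 3), for KO of 124.3 ± 7.94 (SD, n = 6) and for rescue of 121.8 ± 11.3 (SD, n = 6), and the ranges overlapped.

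Few regions separated whole groups. A region counted as gained in a comparison if its peak was present throughout the first-named group and nowhere in the other, and as lost if the reverse was true. For KO against WT, 4 of the 169 regions were gained and 1 was lost, where 4.79% of all regions in the genome were gained and 2.48% lost. For rescue against KO, 1 was gained and 0 were lost, against 0.910% and 1.24% in the genome. For rescue against WT, 3 were gained and 2 were lost, against 4.48% and 2.09%. Each count at the loci was a smaller share of the 169 than the share in the genome. By Fisher's exact test 0 regions of the loci had an adjusted p under 0.05, and 9, 7 and 10 had an unadjusted p under 0.05 in the 3 comparisons in turn, against 10.8%, 5.29% and 9.91% of all regions, where 6 libraries against 3 can give no p below 0.0119. Separation of single groups of 3 is more frequent by its rule, since any of the 5 groups may differ from any other. Of the 169 regions, 30 had a peak in 3 of 3 libraries of some group and in 0 of 3 of another. This was a smaller share than the 26.9% of all regions that did so.

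**Figure D1:**
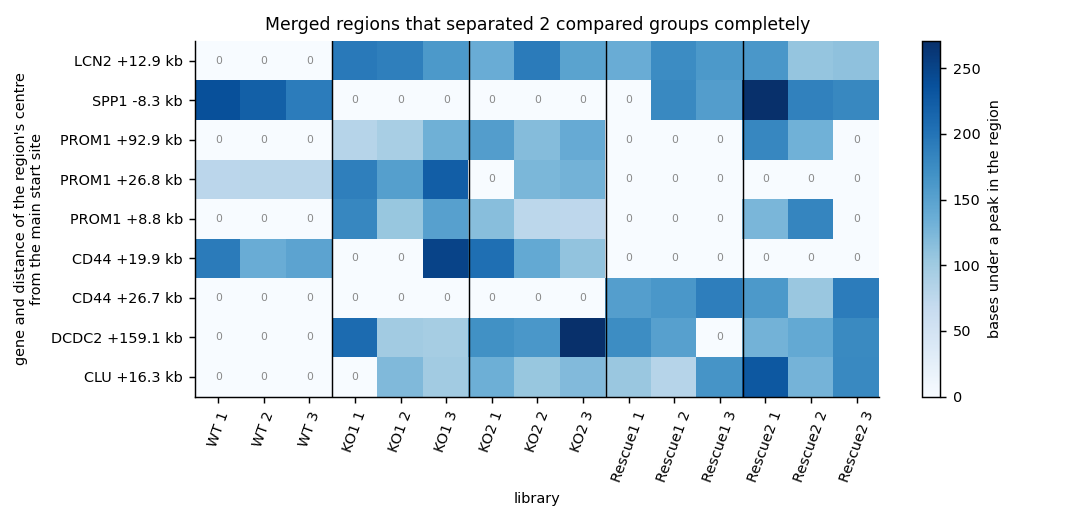
Bases under a peak in each of the 9 regions that separated the compared groups completely (rows, named by gene and by distance of the region's centre from the main start site) in the 15 libraries (columns); darker blue is more bases and 0 means no called peak. The SPP1 region is empty in the 6 KO libraries, the CD44 region at +26.7 kb is filled in the 6 rescue libraries, and the LCN2 region is empty in the 3 WT libraries.

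The length of DNA under peaks was then summed for each locus and library. For KO against WT, 4 of the 10 genes had an exact permutation p under 0.05, SPP1 and HAVCR1 with fewer bases in KO and VCAM1 and PROM1 with more. In the genome 15.4% of genes were higher and 14.9% lower by the same rule, so 2 of 10 loci in each direction was near this background. For rescue against KO the p of SPP1, higher in rescue, was under 0.05, where 30.5% of all genes were higher and 7.11% lower. For rescue against WT that of VCAM1, higher in rescue, was under 0.05, where 21.4% were higher and 4.37% lower. With 6 libraries against 3 the smallest p is 0.0238, which gave a smallest adjusted p of 0.103 between KO and WT and 0.127 between rescue and WT by exact permutation tests with Benjamini-Hochberg adjustment. No gene could be called after adjustment there, with 6057 and 5161 genes at an unadjusted p under 0.05, while limma called 5101 and 4594 genes at an adjusted p under 0.05. Over all 10 loci WT libraries had 35672 ± 3193 bases under peaks (SD, n = 3), KO libraries 36802 ± 1965 (SD, n = 6) and rescue libraries 37047 ± 3044 (SD, n = 6), whereas per Mb under peaks the means ran in the opposite order, at 690 in WT, 659 in KO and 636 in rescue. Per Mb under peaks, 2 of the 10 genes were lower and 0 higher for KO against WT (exact permutation p under 0.05), where 35.4% of all genes were lower and 12.0% higher. On the same scale 3 were lower and 0 higher for rescue against KO (13.1% and 25.5% of all genes), and 4 were lower and 1 higher for rescue against WT (26.0% and 12.5%). The share of all genes whose libraries did not overlap was not computed on this scale.

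**Figure D2:**
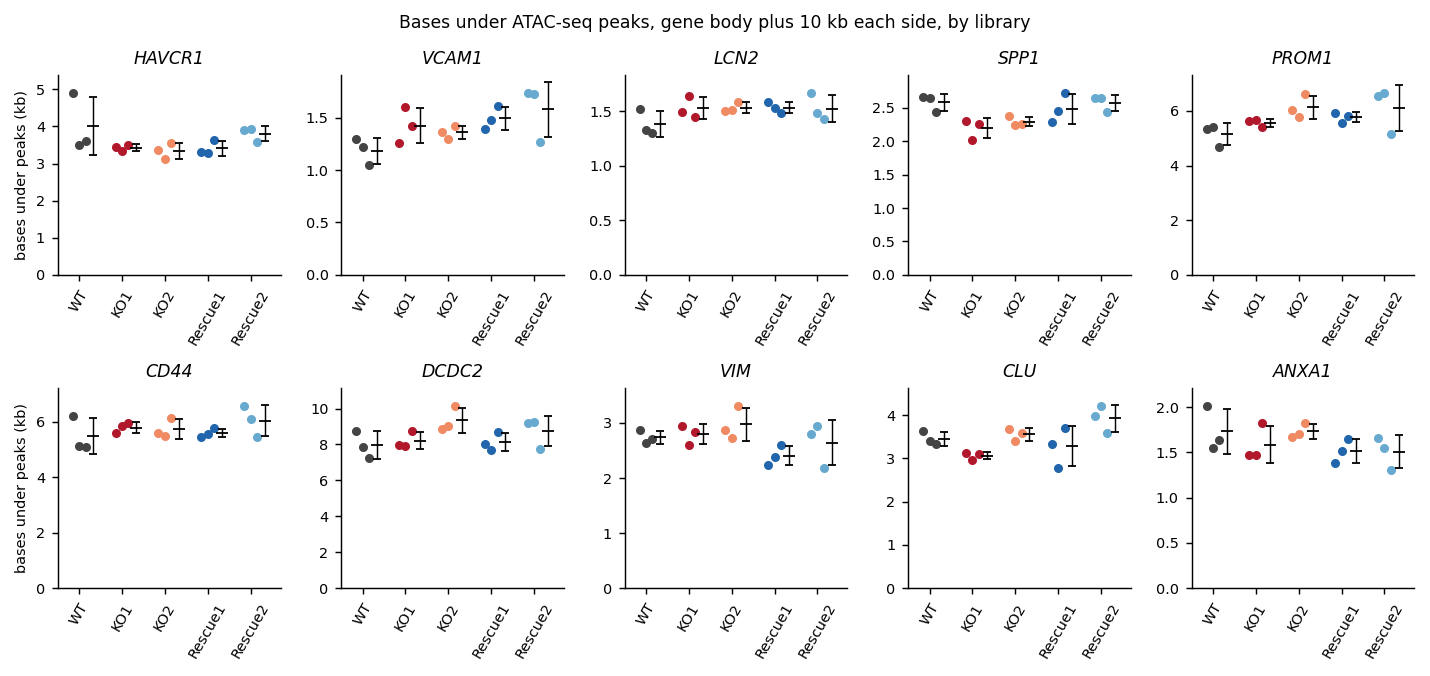
Bases under ATAC-seq peaks (kb, linear axis from 0) at each of the 10 loci in the 15 libraries, with one point per library and the group mean ± SD beside it (n = 3). SPP1 is lower in all 6 KO libraries than in any WT library, and at HAVCR1 a single WT library stands at 4.91 kb above the others.

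SPP1 encodes osteopontin, a secreted phosphoprotein that injured and regenerating tubules release. Its locus (chr4:87975667-87983532, plus strand) held 2669, 2642 and 2432 bases under peaks in the WT libraries. The KO1 libraries held 2309, 2025 and 2253 bases, and those of KO2 held 2378, 2243 and 2263. Every KO library was thus below every WT library, in both clones, and 10.9% of all genes were lower without overlap in this comparison. In Rescue1 the values were 2281, 2456 and 2726 bases and in Rescue2 they were 2640, 2651 and 2441. Of the 6 rescue libraries 5 were above every KO library, and the exception was Rescue1 replicate 1.

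The mean at SPP1 was 2245 bases in KO against 2581 in WT, a difference of -336 bases (exact permutation p = 0.0238, the smallest possible; adjusted p = 0.103). Limma on log2 bases gave an adjusted p of 0.0326 for the same comparison. Against KO the rescue libraries rose to a mean of 2533 bases, a difference of 287 (exact permutation p = 0.00649; adjusted p = 0.0339 over 20007 genes, where 18.8% of genes were higher and 4.29% lower at an adjusted p under 0.05). Against WT the rescue libraries differed by -48.5 bases (exact permutation p = 0.762), but per Mb under peaks all 6 rescue libraries, at 40.5 to 46.7, lay below the WT libraries, at 47.5 to 53.5 (difference -6.46; exact permutation p = 0.0238). On that scale 26.0% of all genes were lower for rescue against WT at an exact permutation p under 0.05. Scaled per Mb under peaks, the difference between rescue and KO had an exact permutation p of 0.0758.

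Most of the SPP1 difference lay in one region upstream of the gene. Centred 8.3 kb before the start site and outside annotated genes, at chr4:87967280-87967561, it held 238, 221 and 191 bases in the WT libraries, 0 in all 6 KO libraries, 0, 178 and 155 in Rescue1 and 271, 186 and 179 in Rescue2. The peak was present in 3 of 3 WT, 0 of 6 KO and 5 of 6 rescue libraries (Fisher's exact p = 0.0119, adjusted p = 0.164, between KO and WT, and exact p = 0.0152, adjusted p = 0.286, between rescue and KO). Taken alone it made -217 of the -336 bases between KO and WT and 162 of the 287 bases between rescue and KO. The region on the main start site added -87.3 bases for KO against WT, while a region 3.0 kb into the gene went the other way by 94.8 bases. For this reason the direction turned when the flanks were left out: within the gene body alone KO exceeded WT by 153 bases (exact permutation p = 0.0714) and rescue differed from KO by -94.7 bases (exact permutation p = 0.0649). The call of the upstream region itself held with stricter peaks, with lists of equal length, with each library left out and in each KO clone alone.

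**Figure D3:**
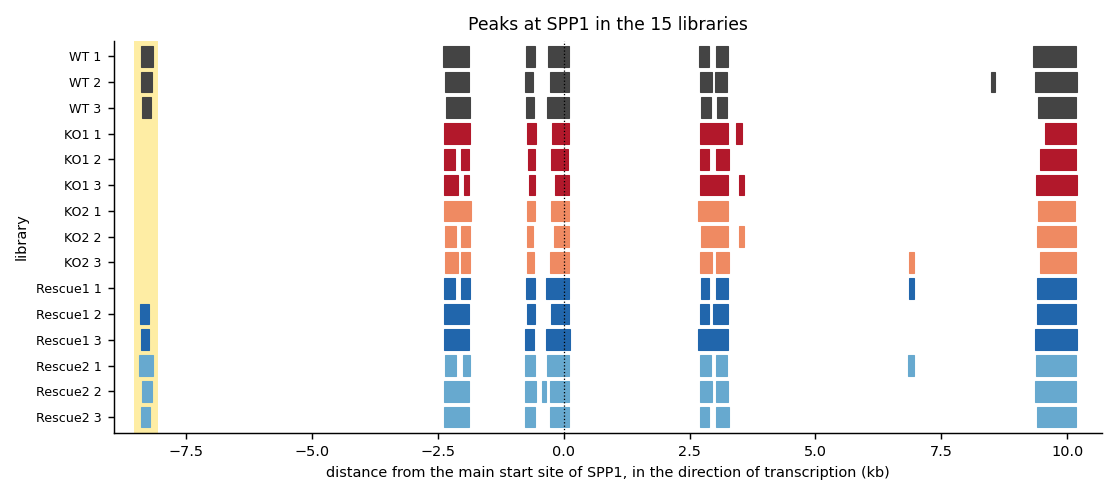
Called peaks at SPP1 in the 15 libraries (rows), drawn as bars along the distance from the main start site (kb, in the direction of transcription; dotted line at 0); the yellow band marks the region 8.3 kb upstream. The band is filled in the 3 WT libraries and 5 of 6 rescue libraries and empty in the 6 KO libraries, while the other large regions appear in every library.

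The 300 bases centred on this region are printed because the region carried the locus difference. They are the plus strand of chr4:87967271-87967570, with matches in capitals to any of 9 short motifs of factors known from injured or tubular epithelium, searched on both strands.
SPP1 -8.3 kb: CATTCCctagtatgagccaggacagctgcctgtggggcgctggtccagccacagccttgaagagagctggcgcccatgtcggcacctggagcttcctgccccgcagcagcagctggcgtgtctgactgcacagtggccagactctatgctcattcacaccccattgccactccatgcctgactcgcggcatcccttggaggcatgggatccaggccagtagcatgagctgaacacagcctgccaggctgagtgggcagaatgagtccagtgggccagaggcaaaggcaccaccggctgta
The window has 62% G and C and its single match is GGAATG, a TEAD core that 20.9% of all 300-base windows at consensus regions hold, at its first base and before the edge of the region. No match was found for AP-1 (TGANTCA, in 31.7% of windows), NF-kB (GGNNTTTCC, 8.43%), RUNX (TGTGGT, 26.5%), STAT (TTCNNNGAA, 9.66%), HNF1 (GTTAATNAT, 1.68%), HNF4 (CAAAGTCCA, 0.412%), SOX (ACAATG, 15.5%) or the POU octamer (ATGCAAAT, 2.03%), which says no more than that these letters are not in the window. Over the 15 libraries the genes whose length under peaks followed SPP1 most closely, among genes over 1 Mb away, were MIEF2 (Pearson r = 0.937), RXFP4 (r = 0.929) and ZNF765 (r = 0.922). Because they were picked by this correlation, their lower KO values, without overlap with WT, are no separate observation. Means in KO against WT were 1675 against 2157 bases for MIEF2, 1071 against 1424 for RXFP4 and 2090 against 2707 for ZNF765.

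HAVCR1 encodes KIM-1, a phosphatidylserine receptor that injured proximal tubule cells shed into urine. The locus (chr5:157026742-157069396, minus strand) held 4908, 3511 and 3603 bases in the WT libraries. In KO1 the values were 3443, 3335 and 3505 bases and in KO2 they were 3377, 3118 and 3542. The KO1 range lay below WT, and 5 of 6 KO libraries were below every WT library, KO2 replicate 3 being the exception. The rescue libraries held 3309, 3279 and 3631 bases in Rescue1 and 3913, 3937 and 3580 in Rescue2, and Rescue2 was above KO2 without overlap. Here and below, single clones are compared as 3 libraries against 3, where no exact permutation p can go below 0.1. For such pairs no share of all genes without overlap is available. A non-overlap of single clones, here and below, is therefore a description that was not set against a background.

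The KO mean at HAVCR1 was 3387 bases against 4007 ± 781 in WT (SD, n = 3), a difference of -621 (exact permutation p = 0.0476; adjusted p = 0.157). Without WT replicate 1 the difference was -170 (exact permutation p = 0.143), so its size depended on that library, and with stricter peaks it was -536 (exact permutation p = 0.119). Rescue differed from KO by 222 bases (exact permutation p = 0.130) and from WT by -399 (exact permutation p = 0.429), the latter turning to 51.2 without WT replicate 1. Per Mb under peaks WT lay above both other groups without overlap, as WT libraries held 71.1 to 87.3 bases, KO libraries 57.6 to 64.2 and rescue libraries 60.1 to 66.2. On that scale KO differed from WT by -16.4 and rescue from WT by -15.1 (exact permutation p = 0.0238 each, the smallest possible). No single region made most of the KO difference, and regions 24.4 and 32.0 kb past the start gave -145 and -116 bases of it. The largest single part, -174 of the -621 bases, came from a region upstream of the gene, at chr5:157072622-157072888, centred 13.6 kb before the main start site. It held 224, 174 and 166 bases in WT, 82 bases in KO1 replicate 3 and 0 in the other 5 KO libraries, and from 73 to 128 bases in all 6 rescue libraries. Its peak was thus present in 3 of 3 WT, 1 of 6 KO and 6 of 6 rescue libraries (Fisher's exact p = 0.0476 between KO and WT and 0.0152 between rescue and KO, neither under 0.05 after adjustment). This upstream pattern had the same order of groups as that at SPP1. Nearer to the start, a region centred at -1.0 kb held a mean of 450 bases in WT, 358 in KO and 183 in rescue libraries.

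LCN2 encodes lipocalin 2, or NGAL, an iron-siderophore carrier released by stressed tubules. At this short gene (chr9:128149071-128153453, plus strand) the libraries held 1527, 1327 and 1307 bases in WT, 1499, 1641 and 1451 in KO1 and 1505, 1512 and 1591 in KO2. Rescue libraries held 1428 to 1672 bases. The groups overlapped through WT replicate 1. Means were 1387 bases in WT, 1533 in KO and 1531 in rescue, and the p-values of the exact permutation tests were 0.119 for KO against WT, 0.976 for rescue against KO and 0.0952 for rescue against WT, the last difference turning negative per Mb under peaks.

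The LCN2 difference lay outside the gene. A region at chr9:128162256-128162462, centred 12.9 kb past the start and inside the neighbouring genes BBLN and CIZ1, had no peak in the 3 WT libraries and a peak of 137 to 194 bases in the 6 KO libraries and of 107 to 175 bases in the 6 rescue libraries. It contributed 170 bases to the difference of 146 between KO and WT, the rest of the locus adding up to -23.8, and in the gene body alone KO was below WT by a difference of -49.2 bases (exact permutation p = 0.0238). Its call for KO against WT held in all 7 alternatives that included the flanks and with each library left out, and for rescue against WT the call was lost with lists of equal length. Whether it bears on LCN2 or on its neighbours was not tested.

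CLU encodes clusterin, a secreted chaperone raised in damaged tubules. At the locus (chr8:27596917-27614700, minus strand) the KO1 and KO2 libraries did not overlap, as was also so at PROM1 and DCDC2. Pooled KO libraries overlapped those of WT. Values were 3631, 3399 and 3321 bases in WT, 3119, 2962 and 3094 in KO1 and 3675, 3391 and 3588 in KO2. KO1 lay below both WT and KO2 without overlap (differences of -392 and -493 bases; exact permutation p = 0.1 each, the smallest that 3 libraries against 3 allow). Rescue1 held 3342, 2786 and 3699 bases and Rescue2 held 3975, 4207 and 3589, and no pooled comparison had a p under 0.05 (exact permutation p = 0.476, 0.240 and 0.643). Rescue exceeded WT by 149 bases on average but differed from it by -5.23 per Mb under peaks, where the exact permutation p was 0.0714. A region 19.6 kb past the start, downstream of the gene at chr8:27594970-27595270, had a peak in 3 WT, 0 KO1, 1 KO2, 2 Rescue1 and 3 Rescue2 libraries. An exonic region 16.3 kb past the start, at chr8:27598274-27598502, had none in WT, 2 of 3 in KO1 and 3 of 3 in KO2, Rescue1 and Rescue2, and its call for rescue against WT was lost with stricter peaks, with lists of equal length and with a minimum of 100 bases.

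Of the adhesion genes, VCAM1 was the one without a called promoter. At this locus (chr1:100719742-100739045, plus strand) the WT libraries held 1292, 1216 and 1048 bases, KO1 held 1258, 1598 and 1418 and KO2 held 1363, 1295 and 1422. Rescue1 held 1393, 1476 and 1609 bases and Rescue2 held 1737, 1723 and 1272. In KO and in rescue alike, 5 of 6 libraries were above every WT library, the exceptions being KO1 replicate 1 and Rescue2 replicate 3. Mean length under peaks was 1185 bases in WT, 1392 in KO (difference 207; exact permutation p = 0.0476, adjusted p = 0.157) and 1535 in rescue (difference from WT 350; exact permutation p = 0.0476, adjusted p = 0.185). Limma gave an adjusted p of 0.169 for KO against WT and of 0.0380 for rescue against WT. With stricter peaks the KO difference was 104 bases (exact permutation p = 0.357), and with lists of equal length neither call was kept (81.3 bases for KO and 110 for rescue; exact permutation p = 0.381 and 0.476).

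The gain at VCAM1 came from regions away from its start. A region 5.9 kb upstream had a mean of 200 bases in WT and 319 in KO libraries, and one 6.6 kb upstream had 371 in WT, 354 in KO and 505 in rescue libraries. An exonic region 17.5 kb past the start, at chr1:100737171-100737311, had a peak in 0 of 3 WT and 0 of 6 KO libraries, 2 of 3 in Rescue1 and 3 of 3 in Rescue2 (Fisher's exact p = 0.0152 for rescue against KO, adjusted p = 0.286).

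CD44 encodes the hyaluronan receptor, a marker of regenerating tubule and of stem-like cells. Its locus (chr11:35138882-35232402, plus strand) showed no difference in total beyond the spread between libraries. WT held 6227, 5131 and 5096 bases, KO libraries 5475 to 6145 and rescue libraries 5454 to 6570. Group means were 5485, 5768 and 5822 bases (exact permutation p = 0.357 for KO against WT, 0.818 for rescue against KO and 0.405 for rescue against WT), and per Mb under peaks all 3 differences were negative.

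Within CD44, single intronic regions nevertheless differed between the rescue clones and the other groups. At chr11:35165739-35165953, 26.7 kb past the start, a peak of 104 to 191 bases was called in all 6 rescue libraries and in none of the 3 WT and 6 KO libraries (Fisher's exact p = 0.00216 for rescue against KO, adjusted p = 0.101). Conversely, at chr11:35158871-35159203, 19.9 kb past the start, the peak was present with 192, 137 and 148 bases in WT, in 1 of 3 KO1 and 3 of 3 KO2 libraries, and in none of the 6 rescue libraries. A further region, at chr11:35173268-35173521 and 34.2 kb past the start, held 176 to 216 bases in WT and 154 to 228 in KO libraries, and 121 bases in Rescue1 replicate 3 with 0 in the other 5 rescue libraries (Fisher's exact p = 0.0152 for rescue against KO). Both rescue clones therefore differed from KO2, their parent, in the same direction at these sites, +19.9 kb and +26.7 kb without exception. The calls at both were lost with stricter peaks and with lists of equal length.

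**Figure D4:**
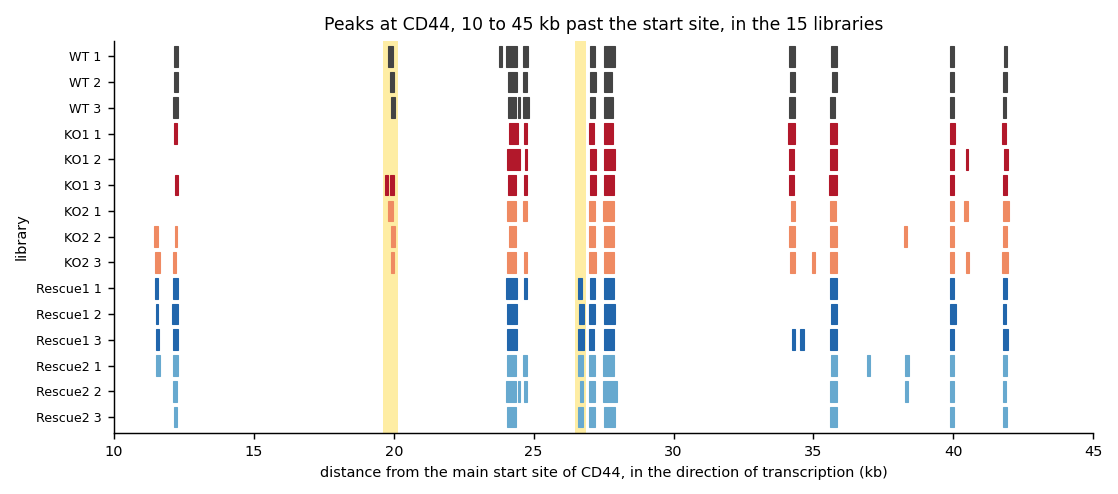
Called peaks at CD44 from 10 to 45 kb past the main start site in the 15 libraries (rows), drawn by distance from that site in kb; yellow bands mark the regions at +19.9 kb and +26.7 kb. The first band is empty and the second filled in the 6 rescue libraries, and the peak near +34.2 kb is absent from 5 of them.

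The windows of these 2 sites are printed to show what the lost and gained CD44 elements contain. Both are plus strand, from chr11:35158887-35159186 and chr11:35165696-35165995, with motif matches in capitals.
CD44 +19.9 kb, absent in rescue: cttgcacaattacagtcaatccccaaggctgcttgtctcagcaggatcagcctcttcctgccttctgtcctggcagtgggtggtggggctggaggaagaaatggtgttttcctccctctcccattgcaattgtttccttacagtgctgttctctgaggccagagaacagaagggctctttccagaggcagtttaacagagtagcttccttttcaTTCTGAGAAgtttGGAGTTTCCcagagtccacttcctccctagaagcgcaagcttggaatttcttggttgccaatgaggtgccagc
CD44 +26.7 kb, present in rescue: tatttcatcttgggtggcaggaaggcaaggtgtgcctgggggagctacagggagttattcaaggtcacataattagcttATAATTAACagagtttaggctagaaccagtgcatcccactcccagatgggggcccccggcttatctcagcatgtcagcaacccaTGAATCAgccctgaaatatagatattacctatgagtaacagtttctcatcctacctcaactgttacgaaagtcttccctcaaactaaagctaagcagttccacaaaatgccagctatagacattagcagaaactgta
The first holds a STAT match (TTCNNNGAA) at base 215 and an NF-kB match (GGNNTTTCC) at base 228. The second holds an HNF1 match (GTTAATNAT, on the minus strand) at base 80 and an AP-1 match (TGANTCA) at base 164. Of these, HNF1 was the rarest among all windows, at 1.68%, and AP-1 the most common, at 31.7%.

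PROM1 encodes prominin 1, or CD133, a pentaspan membrane protein used to mark scattered tubule cells and kidney progenitors. The locus (chr4:15963076-16084378, minus strand) held 5330, 5415 and 4685 bases in WT, 5643, 5661 and 5398 in KO1 and 6018, 5773 and 6600 in KO2. All KO2 libraries and 2 of 3 KO1 libraries were above every WT library, and KO2 was above KO1 without overlap. Rescue1 held 5936, 5563 and 5821 bases and Rescue2 held 6542, 6663 and 5140. Compared with a WT mean of 5143, the KO mean of 5849 was higher by 706 bases (exact permutation p = 0.0476, adjusted p = 0.157) and the rescue mean of 5944 by 801 (exact permutation p = 0.0952). With stricter peaks the KO difference was 783 bases (exact permutation p = 0.0714), with lists of equal length 326 (exact permutation p = 0.333), and per Mb under peaks its exact permutation p was 0.333. Rescue and KO differed by 95.3 bases (exact permutation p = 0.749), and this sign turned per Mb under peaks.

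A difference between clones was found in an intronic region of PROM1 at chr4:16061779-16062468, 21.9 kb past the start. It held 668, 543 and 594 bases in KO2, 646, 624 and 641 in Rescue1 and 651, 684 and 652 in Rescue2. KO1 had 0 bases in all 3 libraries, and WT had 105, 0 and 140. The broad peak was thus shared by KO2 and the 2 clones grown from it and missing from the other knockout clone. The mean was 650 bases in rescue, 301 in KO and 81.7 in WT, so this region alone made 568 of the 801 bases between rescue and WT and 219 of the 706 between KO and WT. Its part in the KO difference came from KO2, as KO1 held 0 bases there. Larger between KO and WT were the differences of the region on the main start site, -224 bases, and of one 120.5 kb past the start that overlaps FGFBP2, 224 bases.

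Other PROM1 regions differed by clone as well. At chr4:16057100-16057322, 26.8 kb past the start, a peak was present in 3 WT, 3 KO1 and 2 KO2 libraries and in 0 of 6 rescue libraries, and its neighbour at chr4:16056808-16057010 was present in 3 KO1 and 2 KO2 libraries alone. Gained in all 6 KO libraries over WT were regions at chr4:15991007-15991187, 92.9 kb past the start with 81 to 155 bases, and at chr4:16075138-16075354, 8.8 kb past the start with 75 to 181 bases. Each of the latter was absent from Rescue1 and present in 2 of 3 Rescue2 libraries. The calls at +26.8, +92.9 and +8.8 kb were lost with stricter peaks, with lists of equal length and with a minimum of 100 bases. A region at +56.2 kb, at chr4:16027734-16027889, had a peak in 2 WT, 0 KO1, 2 KO2, 3 Rescue1 and 3 Rescue2 libraries.

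**Figure D5:**
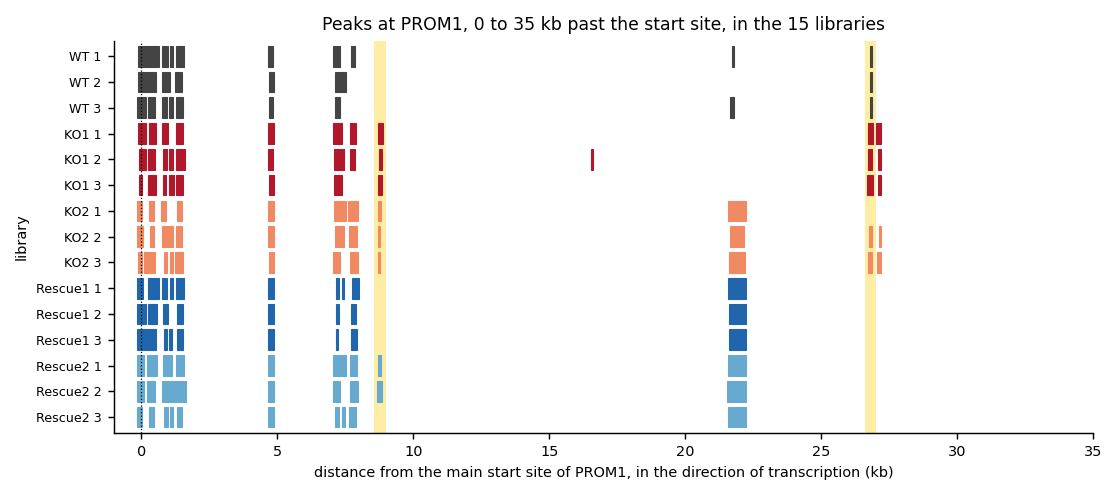
Called peaks at PROM1 from the start site to 35 kb past it in the 15 libraries (rows), drawn by distance from the main start site in kb in the direction of transcription; yellow bands mark the regions at +8.8 kb and +26.8 kb that separated groups. The wide peak near +21.9 kb is present in the 3 KO2 and 6 rescue libraries, absent in KO1, and small or absent in WT.

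The +8.8 kb window is printed because, of the 2 gained PROM1 regions, this one has a window clear of annotated exons. It is the plus strand of chr4:16075096-16075395.
PROM1 +8.8 kb: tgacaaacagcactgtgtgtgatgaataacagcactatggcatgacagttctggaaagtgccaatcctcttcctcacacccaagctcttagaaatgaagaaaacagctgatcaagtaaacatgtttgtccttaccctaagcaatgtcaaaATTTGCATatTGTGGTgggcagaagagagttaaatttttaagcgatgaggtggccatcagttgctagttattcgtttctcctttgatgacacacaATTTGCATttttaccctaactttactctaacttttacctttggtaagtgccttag
Its matches are the POU octamer (ATGCAAAT, on the minus strand) at bases 151 and 246 and a RUNX match (TGTGGT) at base 161. Of all windows, 2.03% hold at least 1 octamer.

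DCDC2 encodes a doublecortin-domain protein of microtubules and primary cilia, used as a marker of a stem-like or maladaptive tubule state. It spans the longest of the loci (chr6:24171755-24358059, minus strand) and held the most regions, with 45 of the 169. Bases under peaks were 8775, 7847 and 7268 in WT, 7988, 7921 and 8737 in KO1 and 8878, 9012 and 10140 in KO2. KO2 lay above WT and KO1 without overlap, while KO1 overlapped WT. Rescue1 lay below KO2 without overlap, with 8022, 7696 and 8717 bases, and Rescue2 overlapped it with 9216, 9233 and 7760. None of the pooled comparisons had a p under 0.05 (exact permutation p = 0.143 for KO against WT, 0.494 for rescue against KO and 0.381 for rescue against WT, the last turning negative per Mb under peaks). Per Mb under peaks the difference between rescue and KO was -12.2 (exact permutation p = 0.0216).

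Of the 45 DCDC2 regions 16 had a peak in every library, and 9 separated single groups. An intronic region at chr6:24198788-24199077, 159.1 kb past the start, was gained in KO, with 0 bases in WT and 95 to 270 in the 6 KO libraries, and had a peak in 5 of 6 rescue libraries. Its call was lost with stricter peaks, lists of equal length and a minimum of 100 bases. The region at +134.7 kb (1 WT, 1 KO1 and 3 KO2 libraries) was absent from both rescue clones, the one at +119.8 kb was present in 3 KO2 libraries and 1 Rescue1 library, and the one at +102.1 kb in 3 KO1 libraries and 1 KO2 library. At +25.2 kb a peak was present in 0 WT, 1 KO1, 3 KO2, 3 Rescue1 and 2 Rescue2 libraries, at +139.5 kb in 0, 1, 2, 0 and 3 and at +171.1 kb in 0, 0, 1, 1 and 3. Downstream of the gene, at +190.9 kb, a peak was present in 3 WT, 0 KO1, 2 KO2, 1 Rescue1 and 2 Rescue2 libraries. The intronic region at +114.3 kb had one in 2 WT, 2 KO1, 3 KO2, 2 Rescue1 and 0 Rescue2 libraries.

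VIM encodes vimentin, the intermediate filament of mesenchymal and dedifferentiated epithelial cells. At this locus (chr10:17228241-17237593, plus strand) WT libraries held 2875, 2632 and 2707 bases, KO1 held 2952, 2595 and 2827 and KO2 held 2881, 2736 and 3307. Rescue1 held 2244, 2388 and 2595 bases, each below WT and at or below KO, and Rescue2 held 2794, 2945 and 2178. The rescue mean of 2524 differed from the KO mean of 2883 by -359 bases (exact permutation p = 0.0541, adjusted p = 0.140), KO from WT by 145 (exact permutation p = 0.405, negative per Mb under peaks) and rescue from WT by -214 (exact permutation p = 0.310). Per Mb under peaks the rescue libraries, at 40.3 to 45.7, lay below all KO libraries, at 47.0 to 55.0, and all WT libraries, at 51.2 to 54.7 (differences of -8.35 and -9.83; exact permutation p = 0.00216 and 0.0238, the smallest possible). At an exact permutation p under 0.05, 13.1% of all genes were lower per Mb for rescue against KO and 26.0% for rescue against WT. No VIM region separated any groups completely. Downstream, at +10.5 kb, a region present in all 15 libraries held a mean of 915 bases in WT, 1045 in KO and 854 in rescue, and at +2.3 kb a region was present in 3 WT, 6 KO, 1 Rescue1 and 2 Rescue2 libraries.

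ANXA1 encodes annexin A1, a phospholipid-binding protein that limits inflammation. The locus (chr9:73151865-73170393, plus strand) held 2013, 1547 and 1636 bases in WT, 1467 to 1828 in KO and 1306 to 1663 in rescue libraries, and the pooled groups overlapped. Both rescue clones lay below KO2 (1673, 1704 and 1827 bases) without overlap, Rescue2 by a narrow margin with 1663 bases at most. Means were 1732, 1661 and 1510 bases, with exact permutation p-values of 0.595 for KO against WT, 0.128 for rescue against KO and 0.214 for rescue against WT. Per Mb under peaks, however, the rescue libraries, at 24.1 to 28.4, lay below all WT libraries, at 31.3 to 35.8 (difference -7.45; exact permutation p = 0.0238), and differed from KO by -3.78 (exact permutation p = 0.0195). At an exact permutation p under 0.05, 26.0% of all genes were lower per Mb for rescue against WT and 13.1% for rescue against KO. An intronic region 3.0 kb past the start, at chr9:73154775-73155010, had a peak in 3 WT, 1 KO1 and 3 KO2 libraries, 0 of 3 in Rescue1 and 1 of 3 in Rescue2. One at +0.8 kb went the other way, with 1 WT, 1 KO1, 0 KO2, 3 Rescue1 and 2 Rescue2 libraries.

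The remaining separated groups were few at HAVCR1 and CD44. At HAVCR1 a region 7.1 kb before the main start was called in 3 of 3 Rescue2 libraries and 0 of 3 WT libraries. At CD44 one at chr11:35150611-35150824 was called in 3 of 3 Rescue1 and 2 of 3 KO2 libraries but in no WT or KO1 library, and one at +45.2 kb in 3 WT, 2 KO1, 3 KO2, 0 Rescue1 and 2 Rescue2 libraries. At CLU the region at +19.3 kb was called in 2 WT, 0 KO1, 1 KO2, 2 Rescue1 and 3 Rescue2 libraries.

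A list of 47 further genes of tubule injury, repair and epithelial plasticity was described beside the loci. It was chosen with earlier results of these data known, so its counts are a description only. For KO against WT, 4 of the 47 were higher and 12 lower without overlap of libraries, where 12.2% and 10.9% of all genes were. NCAM1, the neural cell adhesion molecule, had a mean of 1440 bases in WT and 10110 in KO (ratio 7.02), ALDH1A3, a retinoic acid synthesising enzyme, had a ratio of 1.49 and TIMP2, a metalloproteinase inhibitor, one of 1.22. Lower were CCN1, a matricellular protein (ratio 0.611), ICAM1, a leukocyte adhesion molecule (0.632), and KRT7, a simple epithelial keratin (0.720). By the unadjusted exact permutation p under 0.05, 6 were higher and 13 lower, against the 15.4% and 14.9% of all genes. The median log2 ratio for KO against WT, with 100 bases added, was -0.02 over the 47 genes, 0.07 over the 10 loci and -0.00 over all genes.

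For rescue against KO, 3 of the 47 were higher and 3 lower without overlap, where 9.79% and 2.67% of all genes were, and 6 were higher and 5 lower at an adjusted p under 0.05, where 18.8% and 4.29% were. ICAM1 rose from 1456 to 2299 bases, CD24, a progenitor surface protein, from 1556 to 2054, and AKAP12, a kinase scaffold, from 3858 to 4911, each with an adjusted p of 0.0174 by the exact permutation test. ALDH1A1, a retinaldehyde dehydrogenase, fell to 1581 bases in rescue from 3262 in KO, CXCL8, a neutrophil chemokine, to 1716 from 2540, and ANXA5, an annexin, to 3308 from 3995, with the same adjusted p. NCAM1 stayed high in rescue, at 8585 bases. For rescue against WT, 5 were higher and 8 lower without overlap, where 15.7% and 3.06% of all genes were, with NCAM1 (ratio 5.96) and ALDH1A3 (1.49) highest and ALDH1A1 (0.481) and CCN1 (0.600) lowest. Ratios at the 10 loci themselves ran from 0.845 (HAVCR1, KO against WT) to 1.29 (VCAM1, rescue against WT).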

How the data were processed

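The authors aligned ATAC-seq reads to hg38 with BWA (version 0.7.17 in the submitters' processing notes; the study's methods name another) and called peaks in each library separately with MACS2 2.2.7.1. The deposited lists give each peak's interval and its −log10 q, the authors having kept q-values under 0.05. They hold no read counts, and the sequencing depth that the study summarises in its supplement was not used here. No counting interval was given, and a region without a peak lies below the calling threshold.

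Positions are counted from 1. Peaks on 24 chromosomes were used, with GENCODE 44. Peaks sharing a base were merged, and regions in at least 2 libraries were tested. Bases under peaks were summed over each gene body with 10000 bp on each side for 20007 protein-coding genes. Groups were compared by exact two-sided permutation tests (the smaller tail doubled) on group means (84 splits for 6 libraries against 3, 924 for 6 against 6), with Benjamini-Hochberg adjustment over all genes, and regions by Fisher's exact test (Python 3.11.15, numpy 2.4.6, scipy 1.17.1). KO was KO1 and KO2, and rescue was Rescue1 and Rescue2. Alternatives included limma 3.58.1 in R 4.3.3 on log2(bases + 100). The tests were run on simulated data with independent noise in each library and no difference between clones. That check does not cover variation between clones. No 2 libraries shared over 0.131% of their intervals.

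The genes, the wider list and the marker lists were chosen with earlier results of these data known. Named were all 10 genes, regions that separated compared groups or single clones completely or held a main start site, at most 6 non-overlapping genes of the wider list per comparison by largest ratio of means, and the 3 genes most like SPP1. Motifs were read from hg38 in 300-base windows. Replicate numbers did not pair libraries: the correlations of their deviations over 30 same-number pairs ran from -0.184 to 0.0502.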

Additional observations from a re-analysis of the deposited data

How the results depend on the processing

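The number of loci with an exact permutation p under 0.05 for KO against WT was 4. It became 2 with stricter peaks (−log10 q of at least 5), 1 without flanks, 0 in KO1 alone, 0 in KO2 alone (3 libraries against 3 cannot go below 0.1), 2 per Mb under peaks, and 0 to 2 with one library left out, where leaving out a WT library allows no p below 0.0714. For rescue against KO the 1 locus became 2 with stricter peaks, 3 with lists of 150000 peaks, 2 against KO2 alone, 3 per Mb, 2 with limma, and 1 to 2 with one library left out. For rescue against WT the 1 locus became 3 with stricter peaks, 0 without flanks, 5 per Mb, 2 with limma, and 0 to 2 with one library left out. The replicate block, with labels permuted within replicate numbers, gave 0 loci between KO and WT and 0 between rescue and WT, where the smallest p it allows is 0.0741, and 1 for rescue against KO; limma with the replicate block gave 2 for rescue against KO and 2 for rescue against WT. With that block limma's adjusted p was 0.0577 for SPP1 between KO and WT (0.0326 without it) and 0.0574 for VCAM1 between rescue and WT (0.0380 without it). Replicate numbers did not pair the libraries, 4 of 15 of which lay closest to one of their own number.

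Regions gained and lost between KO and WT (4 and 1) became 1 and 2 with stricter peaks, 2 and 4 with lists of equal length, 2 and 2 with at least 100 bp under peaks, and 14 and 14 by a majority rule, with 0 lost without flanks, 3 lost in KO1 alone, 7 gained and 2 lost in KO2 alone, and 4 to 5 gained and 1 to 3 lost with one library left out. For rescue against KO (1 and 0) gained regions were 0 with stricter peaks and 0 with equal lists, and both became 3 and 3 against KO1 alone, 2 and 2 against KO2 alone, 11 and 14 by majority, and 1 to 2 and 0 to 2 with one library left out. For rescue against WT (3 and 2) they became 1 gained with stricter peaks, 0 and 4 with equal lists, 1 lost with at least 100 bp, 14 and 15 by majority, and 3 to 4 and 2 to 5 with one library left out.

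Differences in bases changed sign as follows; the cause was not tested, except that flanks or libraries were removed by construction. Stricter peaks gave -24.8 for PROM1 and 63.8 for DCDC2 (rescue against KO). Equal lists gave -206 for CD44 and 43.5 for DCDC2 (rescue against KO) and -187 for CD44 and -86.7 for CLU (rescue against WT). Without flanks, KO against WT was -49.2 for LCN2, 153 for SPP1 and 16.5 for CLU, rescue against KO was -94.7 for SPP1, and rescue against WT was -52.3 for LCN2 and 58.3 for SPP1. Against KO1 alone rescue gave 0.833 for LCN2 and 225 for DCDC2, against KO2 alone -186 for PROM1, and KO2 alone against WT gave 101 for CLU and 2.67 for ANXA1. Per Mb under peaks, KO against WT was -2.60 for CD44 and -1.47 for VIM, rescue against KO was -2.69 for PROM1 and -3.26 for CD44, and rescue against WT was -0.413 for LCN2, -5.86 for CD44, -9.08 for DCDC2 and -5.23 for CLU. With one library left out, ranges that crossed 0 were -163 to 69.7 for ANXA1 (KO against WT), -647 to 51.2 for HAVCR1 (rescue against WT), -30.2 to 19.6 for LCN2 (rescue against KO), -95.5 to 130 for CD44 (rescue against KO), -123 to 1.8 for SPP1 (rescue against WT) and -48.4 to 256 for PROM1 (rescue against KO). Of the calls of single regions, 53 of 75 stayed under other settings and 102 of 102 with a library left out.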
